A study of Mus musculus with 6 samples.

Results

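Kif5b, Kif24, Dync1i1, Dctn3, Invs, Anks6 and Tmem67 are 7 mouse genes of microtubule transport and of the primary cilium, taken by name from the 53647 features of the deposited table. Of these, 4 encode motor subunits or a motor cofactor and 3 encode cilium proteins. RNA was sequenced from the mouse mammary carcinoma line D2.OR, a model of dormant tumour cells, that carried a lentiviral scrambled hairpin (Scram, 3 libraries) or a hairpin against Slx4ip (shSLX4IP, 3 libraries). Both populations were transduced, selected with puromycin and harvested after 7 days of 3D culture on Cultrex, an extract of basement membrane, with 10% serum in the medium. Values by library are given below in the order A, B and C. The series asks what depletion of SLX4IP, a partner of the nuclease scaffold SLX4, does to the transcriptome. The labels call the replicates biological without saying whether the cultures were separate, so p-values measure the spread between these libraries, part of which may be technical.

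Kinesins and cytoplasmic dynein move cargo along microtubules in opposite directions. Dynactin couples dynein to its cargo. The primary cilium is a single, non-motile projection built on a centriole after cells leave the cycle. Its base holds a gate, the transition zone, which controls which membrane proteins enter, and its proximal shaft holds the inversin compartment, named after the protein that organises it. Mutations in genes of these structures cause cystic kidney disease and related disorders.

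RefSeq's promoter table for GRCm38.p6 held 4 of the 7 genes, and the 200 bases before the annotated start of each are shown to set Invs, which rose, beside Kif24 and Dctn3, which did not pass the test, and Dync1i1, listed at 0. Capitals mark matches on either strand to 5 motifs: the X-box arm GTTGCC bound by RFX factors, which control many cilium genes, the CCAAT box CCAAT, the GC box GGGCGG, the cyclic AMP response element TGACGTCA and the TATA box TATAAA. The windows are chr4:48279560-48279759 on the plus strand (Invs), chr4:41464888-41465087 on the minus strand (Kif24), chr4:41723171-41723370 on the minus strand (Dctn3) and chr6:5725439-5725638 on the plus strand (Dync1i1), each written 5′ to 3′.
Invs: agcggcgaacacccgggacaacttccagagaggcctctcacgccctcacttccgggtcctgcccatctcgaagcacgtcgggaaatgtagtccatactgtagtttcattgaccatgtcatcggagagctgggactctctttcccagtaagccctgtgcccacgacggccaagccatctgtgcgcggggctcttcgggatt
Kif24: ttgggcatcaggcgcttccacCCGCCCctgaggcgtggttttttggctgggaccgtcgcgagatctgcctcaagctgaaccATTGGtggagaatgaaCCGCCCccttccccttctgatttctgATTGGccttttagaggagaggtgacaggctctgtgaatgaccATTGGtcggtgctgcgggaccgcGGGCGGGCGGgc
Dctn3: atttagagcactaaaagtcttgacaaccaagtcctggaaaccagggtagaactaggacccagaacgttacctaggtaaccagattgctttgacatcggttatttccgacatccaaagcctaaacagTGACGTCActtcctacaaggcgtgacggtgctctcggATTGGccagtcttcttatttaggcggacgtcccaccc
Dync1i1: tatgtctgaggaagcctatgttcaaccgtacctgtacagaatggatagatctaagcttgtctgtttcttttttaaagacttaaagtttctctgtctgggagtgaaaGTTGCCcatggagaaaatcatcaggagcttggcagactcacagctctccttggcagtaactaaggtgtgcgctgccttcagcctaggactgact
The window of Kif24 held 3 CCAAT boxes and 4 GC boxes, of which 2 overlap. That of Dctn3 held 1 CCAAT box and 1 cyclic AMP response element. That of Dync1i1 held 1 X-box arm, and the letters of none of the 5 motifs occur in that of Invs. The 4 windows end at the gene start of GENCODE M21. The 32851 RefSeq promoters set beside them were cut to the same length at a fixed place in each RefSeq window. The anchors can therefore differ. Of those promoters 8.71% held the X-box arm, 29.3% the CCAAT box, 31.0% the GC box, 1.47% the cyclic AMP response element and 9.96% the TATA box. The windows of Invs and Kif24 held 14 and 13 CpG dinucleotides, that of Dctn3 held 9 and that of Dync1i1 held 2, against a median of 5 over all promoters.

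The 6 libraries held between 5433573 and 6693111 recovered reads. Rows could be read as genes only in 4 chromosome segments in which high values run together, and all 7 genes lie inside them, 5 on chromosome 4, 1 on chromosome 6 and 1 on chromosome 18. Features inside the segments, with the mitochondrial genes, are called placed. Outside them, rows of genes that every cell uses, such as Actb and Eef1a1, were listed at 0 in all 6 libraries. Slx4ip itself (chromosome 2) lies outside and was listed at 0 in all 6, so the hairpin's target gave no check of the labels. Scram A stood apart from the other Scram libraries, with correlations to them of 0.763 and 0.804, where the other pair reached 0.876 (log2 values across features, which are not independent). From 6110599 reads it had 8464 features above 0, against 10548 to 11611 in the remaining libraries of both groups. Its normalised values summed to 8948118, against 5276405 to 5974334 in those libraries. Of 12 mammary epithelial markers only Grhl2 and Esrp1 were placed. They were low, with a sum of 26.2 to 82.0 in Scram and 2.93 to 22.6 in shSLX4IP. The 1 placed marker of 9 for fibroblasts, Col1a2, was at 20226 to 25022 in Scram and at 239 to 302 in shSLX4IP. No endothelial or leukocyte marker was placed. The part of cell makeup in the results below was not tested, and fewer cells of a type cannot be told apart from less RNA per cell.

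In the comparison of the 2 hairpins, the 2 cilium genes with reads to test, Invs and Tmem67, rose in shSLX4IP, and no motor gene passed the test. A gene was tested where its mean over the 6 libraries was at least 10, which 5 of the 7 genes met. Dync1i1 and Anks6 did not. The test was limma on log2(value + 1), 2-sided, with Benjamini-Hochberg adjustment over 8127 features and a threshold of 0.05. Of the 5 genes tested 2 were higher and 0 lower. Among all features tested 11.7% were higher and 11.3% lower, and among the 462 placed ones 17.3% were higher and 22.9% lower. Most of the 8127 features thus lie outside the segments, where rows could not be read as genes. Adjusted over placed features only, the limma adjusted p was 0.000646 for Invs and 0.00325 for Tmem67. Values of the Scram and shSLX4IP libraries did not overlap for 3 of the 5, Dctn3, Invs and Tmem67, which compares with 53.5% of all features and 67.1% of placed ones. Limma and edgeR at an unadjusted p under 0.05 also gave 0 lower, as did edgeR after adjustment. DESeq2 gave 2 lower at an unadjusted p under 0.05 and 1, Kif5b, after adjustment. The counts were not tested against these shares. The median log2 fold change was 0.36 over the 5, -0.23 over placed features and 0.25 over all features.

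**Figure D1:**
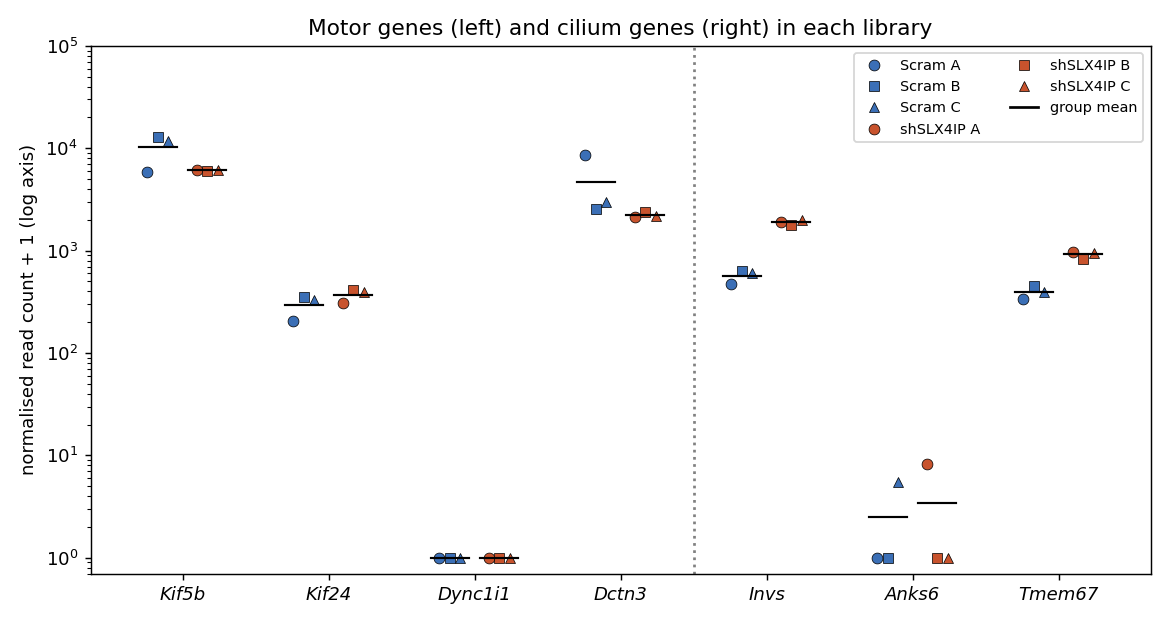
Normalised read count plus 1 (log axis) of each gene in each library, with motor genes to the left of the dotted line and cilium genes to the right; symbols are libraries and bars are group means. Invs and Tmem67 are higher in each shSLX4IP library than in any Scram library, Scram A stands apart in Kif5b and Dctn3, and Dync1i1 is at 0 throughout.

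Kif5b (ENSMUSG00000006740.15, GRCm38 chromosome 18, 6201002 to 6242174, minus strand) encodes the widely expressed heavy chain of conventional kinesin, which carries organelles and messenger RNAs outward. Its normalised read count was 5916, 12791 and 11871 with the scrambled hairpin and 6201, 6042 and 6074 with the Slx4ip hairpin. The 3 shSLX4IP libraries lay close together (6105 ± 84.2, mean ± SD, n = 3), while Scram B and C were about alike and Scram A lay below every shSLX4IP library (Scram mean 10193 ± 3732, n = 3). The log2 fold change was -0.66 (SE 0.31, 95% interval -1.43 to 0.11) and did not pass (limma adjusted p = 0.176). Without Scram A it was -1.01 and Kif5b fell in shSLX4IP (limma adjusted p = 0.000467), in a fit in which 19.0% of all features and 36.1% of placed ones were lower. In that comparison the mean of the shSLX4IP libraries was 0.495 times that of Scram B and C.

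Kif24 (ENSMUSG00000028438.17, chromosome 4, 41390745 to 41464887, minus strand) belongs to the kinesins that shorten microtubules, and its product acts at the mother centriole with CP110 to hold back cilium assembly. It therefore belongs to both groups of genes. Its values were 204, 348 and 329 in the Scram libraries and 307, 409 and 396 in the shSLX4IP libraries. The groups overlapped, since shSLX4IP A lay below Scram B and C. The log2 fold change was 0.36 (SE 0.28, 95% interval -0.33 to 1.06, limma adjusted p = 0.371), and it did not pass in any of 17 other settings, with values from 0.12 without Scram A to 0.51 without Scram B.

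Dctn3 (ENSMUSG00000028447.12, chromosome 4, 41714798 to 41723170, minus strand) encodes p24, a small subunit in the shoulder of dynactin. The gene stood at 8528, 2564 and 3013 in the Scram libraries and at 2116, 2392 and 2200 in those of shSLX4IP. Every Scram library was above every shSLX4IP library, but Scram B exceeded shSLX4IP B by little, and Scram A was 3.06 times the average of the other Scram libraries. The log2 fold change of -0.85 (SE 0.47, 95% interval -2.01 to 0.30) did not pass (limma adjusted p = 0.226). It was -0.32 without Scram A (adjusted p = 0.0611), and Dctn3 passed in none of the 17 other settings. Of its 20 nearest protein-coding genes 2 had a mean of at least 1000 and 6 were listed at 0 in every library.

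Dync1i1 (ENSMUSG00000029757.17, chromosome 6, 5725639 to 6028039, plus strand) encodes an intermediate chain of cytoplasmic dynein known mainly from neurons. It was listed at 0 in all 6 libraries. Of the 20 nearest protein-coding genes, 10 on each side, 8 had a mean of at least 1000 and 5 were listed at 0 in every library. The gene thus lies among genes with many reads and shares its 0 with some of its neighbours.

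Invs (ENSMUSG00000028344.13, chromosome 4, 48279760 to 48431954, plus strand) encodes inversin, an ankyrin repeat protein that gives the inversin compartment its name, is needed for left-right asymmetry and restrains canonical Wnt signalling through Dishevelled. The Scram libraries held 473, 626 and 603, and the shSLX4IP libraries 1912, 1798 and 2006. Every shSLX4IP library was far above every Scram library, and the libraries within each group lay close together. The mean rose from 567 ± 82.5 to 1906 ± 104 (SD, n = 3 each), a log2 fold change of 1.76 (SE 0.17, 95% interval 1.34 to 2.17, limma adjusted p = 0.00191), or 3.38-fold. Among placed features 51 of 462 had a larger log2 fold change.

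Tmem67 (ENSMUSG00000049488.15, chromosome 4, 12039355 to 12090020, minus strand) encodes meckelin, a membrane receptor of the transition zone that is mutated in Meckel and Joubert syndromes. Its values were 337, 448 and 391 under Scram and 978, 826 and 947 under shSLX4IP. All 3 shSLX4IP libraries were above all 3 Scram libraries, with the lowest, shSLX4IP B, well above the highest, Scram B. Tmem67 rose from 392 ± 55.8 to 917 ± 80.6 (SD, n = 3 each; log2 fold change 1.23, SE 0.18, 95% interval 0.78 to 1.68, limma adjusted p = 0.00770), or 2.35-fold, with 76 of 462 placed features above it.

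Anks6 (ENSMUSG00000066191.13, chromosome 4, 47015669 to 47057427, minus strand) encodes an ankyrin repeat and SAM domain protein that binds inversin and activates the kinase NEK8 in the inversin compartment. Its value was 4.56 in Scram C and 7.25 in shSLX4IP A, from 5 and 8 recovered reads, and it was listed at 0 in the other 4 libraries. At this depth no difference was detectable, and the compartment's namesake was higher in shSLX4IP while its partner gene had next to no reads in either group. Of the 20 protein-coding neighbours of Anks6, 9 had a mean of at least 1000 and 2 were listed at 0 in every library.

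**Figure D2:**
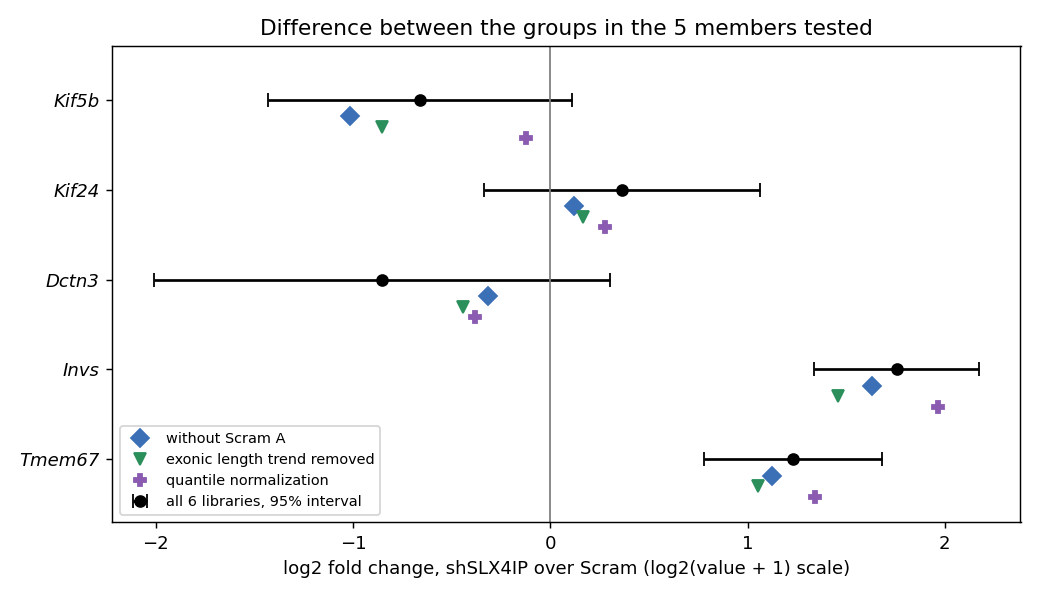
Log2 fold change of shSLX4IP over Scram in the 5 genes tested, with the 95% interval of limma over all 6 libraries (black) and the values without Scram A, with the trend with exonic length removed and after quantile normalization. Invs and Tmem67 stay above 1 in each, and Kif5b runs from -1.01 without Scram A to -0.12 after quantile normalization.

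Invs and Tmem67 kept their calls in each of 17 other settings. The log2 fold change of Invs ran from 1.46 with the length trend removed to 1.97 after quantile normalization, and that of Tmem67 from 1.05 to 1.34 in the same settings. Their weakest adjusted p came without shSLX4IP A, at 0.0158 for Invs and 0.0462 for Tmem67. Without Scram A the values were 1.63 for Invs and 1.13 for Tmem67, in a fit in which 23.7% of all features and 29.8% of placed ones were higher. Across the 6 libraries the log2 values of Invs and Tmem67 correlated at 0.994, a description of 6 points that form 2 groups.

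**Figure D3:**
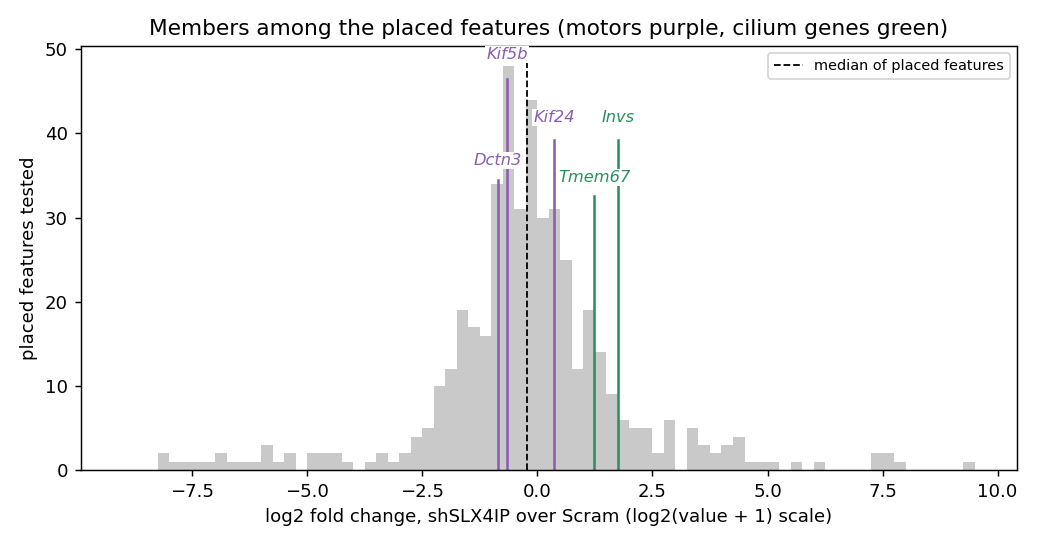
Distribution of the log2 fold change (shSLX4IP over Scram) of the 462 placed features tested, with the 5 genes as lines and the placed median of -0.23 dashed. Invs and Tmem67 lie on the upper flank, with 51 and 76 features above them, and the motor genes lie near the middle.

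Exons of other genes touch those of both genes that rose. Those of Invs overlap Tex10 on the other strand over 226 bases, 1.98% of its exonic length. Tex10 was at 2906 ± 292 in Scram and 2247 ± 85.4 in shSLX4IP (limma adjusted p = 0.104). Exons of Tmem67 overlap Rbm12b2 on the other strand over 289 bases, 3.73% of its exonic length, and Rbm12b2 was at 802 ± 59.5 and 785 ± 46.7 (adjusted p = 0.895). They also overlap the antisense gene Gm11842, with a mean value of 0.325, over 131 bases. A stretch of 343 bases of Tmem67 matched Rbm12b1 at 99.4% identity. Rbm12b1 was at 388 ± 140 and 384 ± 52.4 (adjusted p = 0.923). Exons of Kif5b overlap 2 antisense genes, both listed at 0, over 142 and 182 bases. Those of Kif24, Dync1i1, Dctn3 and Anks6 overlap no exon of another annotated gene. For each gene only the longest coding transcript was searched for matches of at least 100 bases at 95% identity or more. No match to another gene exceeded 343 bases. Kif5b had such matches to 116 other genes, the longest of 183 bases, and Kif24 to 5, the longest of 135 bases. The strand setting of the counting is not given in the sources used here.

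Levels were compared between genes per kilobase of exonic length, the union of annotated exons rather than the transcript expressed. In Scram the order of the mean value per kilobase was Dctn3 (4512 ± 3188), Kif5b (1277 ± 468), Tmem67 (50.6 ± 7.21), Invs (49.6 ± 7.22) and Kif24 (36.6 ± 9.81; SD, n = 3 each). The ranges of Tmem67 and Invs overlapped, as did those of Invs and Kif24, while Dctn3 and Kif5b were apart from each other and from the rest. In shSLX4IP the order was Dctn3 (2146 ± 136), Kif5b (765 ± 10.5), Invs (167 ± 9.11), Tmem67 (118 ± 10.4) and Kif24 (46.3 ± 6.94), with no overlap between neighbours. Both widely used motor genes were thus at higher levels than the cilium genes in either group, and Anks6 and Dync1i1 were at or near 0 in both. In Scram Invs and Tmem67 did not differ beyond their spread, and their order there depends on the length used. Exonic lengths were 11431 bases for Invs and 7744 for Tmem67, while their longest coding transcripts held 5633 and 3945 bases. No exchange of ranks between the groups is read from these values.

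**Figure D4:**
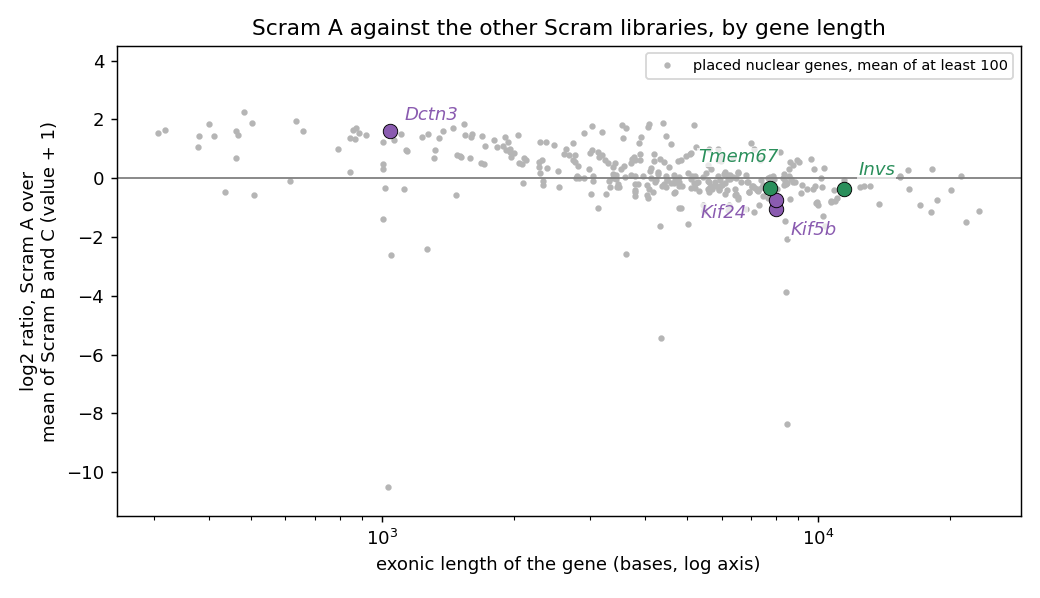
Log2 ratio of Scram A to the average of the other Scram libraries (value + 1) against exonic length (log axis) for nuclear placed genes averaging 100 or more (grey) and the 5 genes tested. Dctn3, the shortest of the 5, is at 1.61, and the 4 long genes are below 0, with Kif5b lowest at -1.06.

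Scram A differed from Scram B and C in a way that went with gene length. Among 353 placed nuclear genes that averaged at least 100, the log2 ratio of Scram A to the average of the other Scram libraries had a median of 0.84 in the 118 shortest genes by exonic length and -0.27 in the 118 longest. A smaller trend was also seen for Scram B over Scram C, with medians of -0.18 and 0.10 in the same sets. The log2 fold change of shSLX4IP over Scram had medians of -0.61 and 0.05 there. Kif5b, Kif24, Invs and Tmem67 belong by length to the longest set (5995 to 23395 bases). Dctn3, with 1042 exonic bases, was at 1.61. Kif5b (7981 bases) was at -1.06, Kif24 (8014) at -0.73, Invs (11431) at -0.38 and Tmem67 (7744) at -0.32. With a trend with exonic length removed from each library, the log2 fold change of Kif5b was -0.85 and it was called lower (limma adjusted p = 0.0154), and that of Dctn3 was -0.44 (adjusted p = 0.0736).

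The wider lists of motor and cilium genes were readable only where their genes were placed. In the motor lists (kinesins, cytoplasmic dynein, dynactin and adaptors), 5 of 95 genes with a row were placed and 4 were tested, of which 0 were higher and 0 lower, against the same 17.3% and 22.9% of placed features, with a median log2 fold change of -0.24. At an unadjusted p under 0.05 limma and edgeR on the recovered reads gave 0 of the 4, and DESeq2 gave 1 higher and 2 lower. After adjustment edgeR called 0 and DESeq2 called 1, Kif5b, as lower (DESeq2 adjusted p = 0.0437). Capza2, a subunit of the actin capping protein that also caps the filament of dynactin, was the 1 placed gene beyond those above. It was at 9346, 8388 and 9302 under Scram and at 10250, 10515 and 9941 under shSLX4IP (log2 fold change 0.19, limma adjusted p = 0.244). The groups did not overlap, but the gap was narrow. The call was made after quantile normalization alone (0.73, adjusted p = 0.0403).

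In the primary cilium and centriole lists 8 of 126 genes with a row were placed and 6 tested, of which 3 were higher and 1 lower, against 17.3% higher and 22.9% lower among placed features, with a median log2 fold change of 0.54. Invs and Tmem67 are 2 of the 3. No gene of intraflagellar transport, the BBSome, the centriole list or the tubulins was placed. Smo, the Hedgehog pathway transducer that acts inside the cilium, was at 5105, 7533 and 6442 under Scram and at 10464, 10396 and 10163 under shSLX4IP, with every shSLX4IP library above every Scram library. It rose by 0.72 on the log2 scale (SE 0.17, limma adjusted p = 0.0321), a call that was lost in 6 of 17 other settings, including those that left out Scram C or 1 of the shSLX4IP libraries (adjusted p from 0.0902 to 0.122). Topors, an E3 ligase gene whose product sits at the base of the cilium in photoreceptors, was at 3248, 3784 and 3597 under Scram and at 2640, 2435 and 2410 under shSLX4IP. It fell by 0.50 on the log2 scale (SE 0.13, limma adjusted p = 0.0390) with no overlap of the groups, and lost its call in 11 of 17 other settings. After quantile normalization its log2 fold change was -0.02.

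Mib1, a ubiquitin ligase of centriolar satellites and of Notch ligand uptake, was at 4185, 7725 and 6536 under Scram and at 7545, 7158 and 7515 under shSLX4IP. Its groups overlapped, with Scram A the lowest, and it did not pass (limma adjusted p = 0.368). Fam92a, a gene of ciliary membrane shaping, was at 3.65 in Scram C and 2.39 in shSLX4IP C and listed at 0 in the other 4 libraries. Of 40 markers of motile cilia 4 were placed, and the others could not be read. The sum of the 4 was 53.2 to 83.5 in Scram and 27.1 to 42.6 in shSLX4IP. Dnah5 was listed at 0 in all 6 libraries, Dnaic1 reached 2.93 in Scram A alone, and Spag8 was at 1.59 to 19.0. Spag1, an assembly factor for axonemal dynein, made up most of the sum, at 49.5 to 61.5 in Scram and 25.5 to 39.9 in shSLX4IP (limma adjusted p = 0.178).

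**Figure D5:**
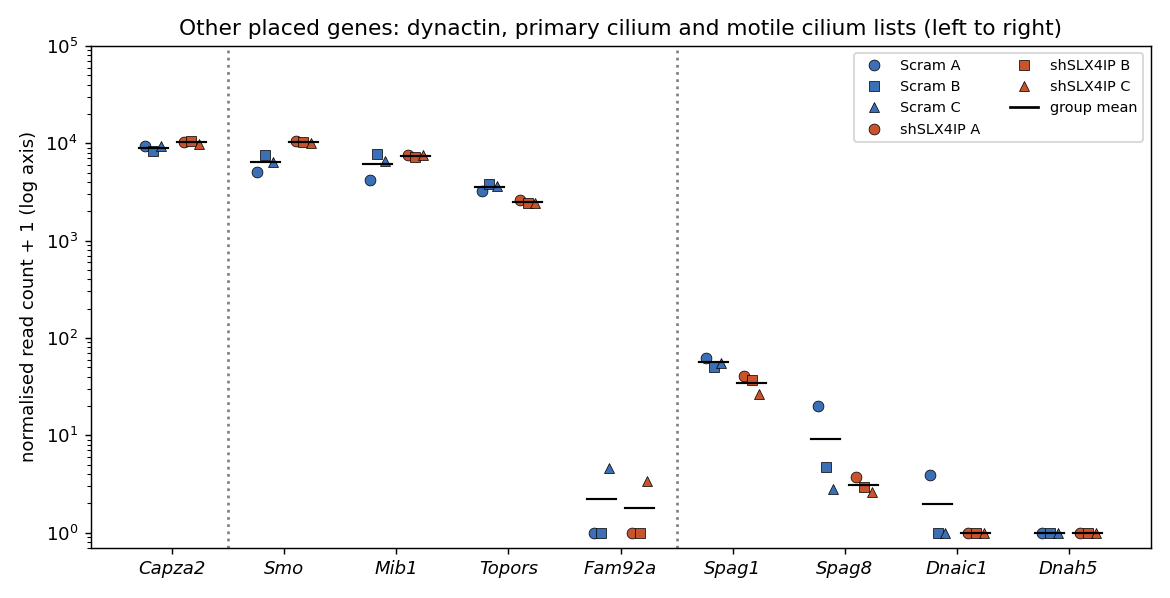
Normalised read count plus 1 (log axis) in each library for the other placed genes of the motor list (left), the primary cilium lists (middle) and the motile cilium list (right); symbols are libraries and bars are group means. Smo is higher and Topors lower in each shSLX4IP library than in any Scram library, and the motile cilium genes stay at 61.5 or below.

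The placed gene most like each of the 5 was found by Pearson's r of log2(value + 1) over the 6 libraries, among 326 other placed protein-coding genes with a mean of at least 100. For Invs it was Zfp462, a zinc finger gene, with r = 0.999, and for Tmem67 it was Slc25a13, a mitochondrial aspartate and glutamate carrier gene, with r = 0.996. Invs had 65 genes and Tmem67 63 genes with r of at least 0.9, so the likeness is shared widely. Kif5b was nearest to Casp8ap2 (r = 0.991), which was also low in Scram A, with 1031 there, 2253 and 2027 in the other Scram libraries and 1098 to 1217 in shSLX4IP. Dctn3 was nearest to Sem1 (r = 0.995), which was at 17486 in Scram A and at 3955 to 5301 in the other 5 libraries. Kif24 was nearest to Fancg (r = 0.95), and that r ran from 0.710 to 0.992 when 1 library was left out. These values describe 6 libraries that share group and depth, and carry no test.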

How the data were processed

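The deposited signal is, per the file headers and its values, a count per gene divided by 1 size factor per library. Per the submitters' processing notes, the tools were STAR 2.7.7, StringTie 2.1.7, fastp 0.19.5 and DESeq2 1.22.1, on the build GRCm38 (mm10). Which tool did what, the annotation release and the strand setting were not given in the sources used here. Low values were whole multiples of 1 step per library. Divided by it, 99.98% to 100% of values above 0 lay within 0.1 of a whole number, so whole counts were recovered. They are called reads or recovered reads here. Whether they equal sequenced reads was not tested. Identifiers were matched to GENCODE M21 (GRCm38) without their versions, and the identifier version equalled that of M21 for 0 of the 7 genes. The counting may therefore have used other gene models, which was not tested. Positions, exonic lengths, overlaps, neighbours and gene starts given here are those of M21. Along each chromosome a protein-coding gene scored 3 with a mean of at least 1000 and otherwise -1, and the 4 maximal segments of at least 30 were kept (the next scored 18). Placed features lie wholly inside them or are mitochondrial. Limma 3.58.1 in R 4.3.3 tested log2(value + 1) with an intensity trend. The code was run on simulated counts with the same dispersion for every feature. Those counts held no library set apart like Scram A and no trend with gene length, so the run says nothing about their effect. The tools edgeR 4.0.16 and DESeq2 1.42.0 ran on recovered reads, and BLAST 2.17.0 compared transcripts. The exonic length is the union of annotated exons. Columns carry letters, and labels carry numbers, so a letter only names a library of its group.

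The genes and lists were chosen with earlier results of these data known. The genes described by rule are the 7, the other placed genes of the motor and cilium lists, and for each gene tested the placed protein-coding gene with the highest r. Genes outside the rule (the target, cell type markers, genes every cell uses, and genes that overlap or match the 7) are named as checks. These, and the genes with the highest r, were not run under the other settings. Kif5b, Anks6 and Tmem67 were not in the promoter table.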

Additional observations from a re-analysis of the deposited data

How the results depend on the processing

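Over 17 other settings none of the 5 genes tested reversed its direction, Invs and Tmem67 kept their calls in each, and Kif24 and Dctn3 passed in none. The call of Kif5b was made with DESeq2 on recovered reads (log2 fold change -0.74), with the length trend removed (-0.85) and without Scram A, and leaving out 1 library gave -1.01 to -0.46. The genes called lower were then 1 with DESeq2 and with the length trend removed, and 0 to 1 leaving out 1 library. DESeq2 called 1602 features higher and 1624 lower, 165 of the lower ones placed. Removing the length trend, over nuclear genes only, gave 131 placed features higher, against 80 with all 6 libraries as deposited, and 142 lower, against 106. Leaving out 1 library gave 400 to 1945 features higher and 414 to 1560 lower, and 39 to 136 placed ones higher and 57 to 165 lower. The highest counts came without Scram A and the lowest without shSLX4IP A or B. The cause was not tested. Quantile normalization moved the median log2 fold change from 0.25 to -0.0028 over all features and from -0.23 to 0.06 over placed ones. The method gives every library the same distribution over all features tested, so it largely sets the first of these shifts. No paired analysis was possible because the columns carry letters that are not tied to the replicate numbers of the labels. The depth of 5433573 to 6693111 reads limits what can be said of Anks6, and values of 0 can be failed estimates.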
